A study of Mus musculus with 13 samples.

Results

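Nitric oxide, cGMP, endothelin and prostanoid signalling set the tone of blood vessels, and 10 genes of these systems are described here, of 36109 genes listed in the series. They were chosen by name and function, though with earlier results of these data known. Nos3 stands for nitric oxide synthesis, Gucy1a1, Gucy1b1 and Prkg1 for the cGMP response, Edn1, Ece1, Ednra and Ednrb for endothelin, and Ptgs1 and Ptgis for prostanoids. RNA was sequenced from mice with a deletion of Hmox2 (Hmox2-/-, KO) and from their wild-type littermates (Hmox2+/+, WT), all kept in room air. Hmox2 encodes the constitutive heme oxygenase, which breaks down heme and releases carbon monoxide. Aortic endothelial cell (EC) RNA was read in 3 Hmox2+/+ and 3 Hmox2-/- libraries, and RNA of the whole heart in 4 Hmox2+/+ and 3 Hmox2-/- libraries. For heart tissue the study names fewer wild-type samples than there are wild-type libraries. Which library is the additional one, and whether each came from its own mouse, is not given. The heart tests here count each library as a separate sample. The study calls the sequenced mice young. Their exact age and their sex are not given in the sources used here. The EC RNA was obtained by flushing lysis reagent through the aorta, without a sort for a marker. The strain is not given either, and the labels do not tie an EC library to a heart library.

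As background, endothelial nitric oxide synthase (NOS3) makes nitric oxide, which diffuses into smooth muscle and binds the heme of soluble guanylate cyclase, a dimer of GUCY1A1 and GUCY1B1. The cyclase makes cGMP, which activates protein kinase G (PRKG1) and relaxes the muscle. Carbon monoxide binds the same heme, as a weaker activator. Endothelin-1, cut from its precursor by ECE1, constricts vessels through EDNRA on smooth muscle, while EDNRB on endothelium leads to release of nitric oxide and prostacyclin. Prostacyclin is made from arachidonic acid by cyclooxygenase (PTGS1, and the inducible PTGS2) followed by prostacyclin synthase (PTGIS).

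Total estimated counts were 26067147 to 31619776 in 12 libraries and 7268626 in heart WT 1, the shallowest. Hmox2 was lower in both tissues of Hmox2-/- mice, as the labels state, by 2.34 on the log2 scale of normalized counts in ECs and by 2.30 in heart tissue. In TPM the drop was smaller, from a mean of 57.73 to 24.99 in ECs and from 29.35 to 17.22 in heart tissue. The Y-linked gene Ddx3y was at 0.765 CPM in EC KO 2 and 0.671 CPM in EC KO 3, and at 46.7 to 111 CPM in the other 11 libraries, so that 2 of the 3 Hmox2-/- EC libraries stood apart. Each EC result on the 10 genes and each EC ratio is also given without them, which leaves EC KO 1 alone against the Hmox2+/+ libraries and assumes that it varies as they do. Levels of cell type markers differed with genotype as well. The summed level of 10 endothelial markers was 931 to 1778 TPM in ECs of Hmox2+/+ mice and 2032 to 2240 TPM in ECs of Hmox2-/- mice, with none of the 10 at 0, and the EC libraries also held smooth muscle, fibroblast, leukocyte and adipocyte markers, among them 1022 to 1909 TPM of Ucp1, the brown fat uncoupling protein. The 8 cardiomyocyte markers summed to 99.3 to 658 TPM in ECs of Hmox2+/+ mice and 7.82 to 10.3 TPM in ECs of Hmox2-/- mice. In heart tissue, mitochondrially encoded genes took 37.6% to 44.3% of the counts in Hmox2+/+ mice and 22.5% to 27.2% in Hmox2-/- mice. Called higher in ECs were 3 of 7 fibroblast markers, and called lower 7 of 8 cardiomyocyte, 2 of 6 pericyte and 1 of 6 adipocyte markers. Among all genes 18.1% were called there. In heart tissue 3 of 8 cardiomyocyte markers were called higher, 2 of 10 endothelial markers higher and 1 lower, and 1 of 7 fibroblast markers higher and 2 lower. These heart counts are near the 33.4% called among all genes. The 4 adipocyte markers tested had a median log2 fold change of 0.52. In such bulk samples fewer cells of a type and less RNA per cell cannot be told apart. The part of these differences in the results was not tested.

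Prkg1 has 2 annotated starts, whose transcripts are described below. Both are shown, with the start of Ptgs1, the gene called in both tissues. The windows are those of RefSeq on GRCm38.p6, from 250 bases before the start to 50 after it, read 5′ to 3′ on the strand of the gene. A RefSeq window was found for 8 of the 10 genes. The first Prkg1 window (chr19:31764984-31765283, minus strand) ends in bases of the transcript Prkg1-201, which encodes 671 residues. The second (chr19:31664321-31664620, minus strand) ends in bases of Prkg1-202, which encodes 686 residues. The proteins of these lengths are known as the Iα and Iβ forms and differ in their first part, which binds different partners. The Ptgs1 window is chr2:36230176-36230475 (plus strand). Capitals mark the letters GGGCGG (a GC box, CCGCCC on the other strand), GATAA (the core of a GATA site, TTATC on the other strand) and ACGTG (the core of a hypoxia response element, CACGT on the other strand).
Prkg1 first start: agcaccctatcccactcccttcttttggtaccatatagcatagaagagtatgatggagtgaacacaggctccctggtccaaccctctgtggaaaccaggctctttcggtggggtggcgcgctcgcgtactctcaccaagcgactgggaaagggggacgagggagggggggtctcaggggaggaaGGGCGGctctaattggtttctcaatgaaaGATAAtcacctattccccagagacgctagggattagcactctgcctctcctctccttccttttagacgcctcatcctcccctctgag
Prkg1 second start: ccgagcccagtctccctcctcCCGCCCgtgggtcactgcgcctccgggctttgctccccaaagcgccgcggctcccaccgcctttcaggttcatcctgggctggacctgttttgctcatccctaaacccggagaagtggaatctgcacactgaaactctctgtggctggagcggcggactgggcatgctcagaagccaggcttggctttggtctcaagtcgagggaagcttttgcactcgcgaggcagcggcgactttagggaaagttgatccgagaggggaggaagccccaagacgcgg
Ptgs1 start: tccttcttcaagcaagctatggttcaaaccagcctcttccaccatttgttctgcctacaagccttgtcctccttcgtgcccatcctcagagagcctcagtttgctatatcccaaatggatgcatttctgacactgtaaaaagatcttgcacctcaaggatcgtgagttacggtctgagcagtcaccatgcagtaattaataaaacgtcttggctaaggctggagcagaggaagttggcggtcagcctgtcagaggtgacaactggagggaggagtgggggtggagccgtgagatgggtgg
Each Prkg1 window held 1 GC box, at base -66 of the first and base -229 of the second, counted from the start base as 1. The first window also held GATAA at base -37. Among all 32851 RefSeq windows of this length, 35.7% held a GC box, 25.4% GATAA and 19.6% ACGTG. None of the 3 motifs was in these letters of the Ptgs1 window.

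In ECs, Nos3 and Ptgs1 were higher and Gucy1a1 was lower in Hmox2-/- than in Hmox2+/+ mice, and the other 7 genes did not pass the test. Calls rest on edgeR's quasi-likelihood test, with p-values adjusted by Benjamini-Hochberg over the 15301 genes tested and a limit of 0.05. Among those genes 18.1% were called (1532 higher and 1234 lower), against 3 of the 10 genes here. All 10 genes passed the filter on low counts in both tissues. With the added demand of a 2-fold or larger change, 2 of the 10 were called and 9.28% of all genes. The median log2 fold change was 0.04 over the 10 genes and -0.02 over all genes.

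In heart tissue, Prkg1 was lower and Ptgis, Ednra, Ptgs1 and Ednrb were higher in Hmox2-/- mice, 5 of the 10 genes. Among the 13816 genes tested there 33.4% were called (2380 higher and 2238 lower). With the demand of a 2-fold change in either direction, Prkg1 alone of the 10 was called, and 6.71% of all genes. The median log2 fold change of the 10 was 0.25, and that of all genes -0.01.

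The libraries of both genotypes did not overlap in CPM for 4 of the 10 genes in ECs and 7 in heart tissue, as was so for 40.7% and 40.4% of all genes. The genotype difference itself differed between the tissues for Nos3, Gucy1a1, Prkg1 and Ptgis, 4 of the 10 genes, against 28.8% of the 15938 genes tested for it.

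**Figure D1:**
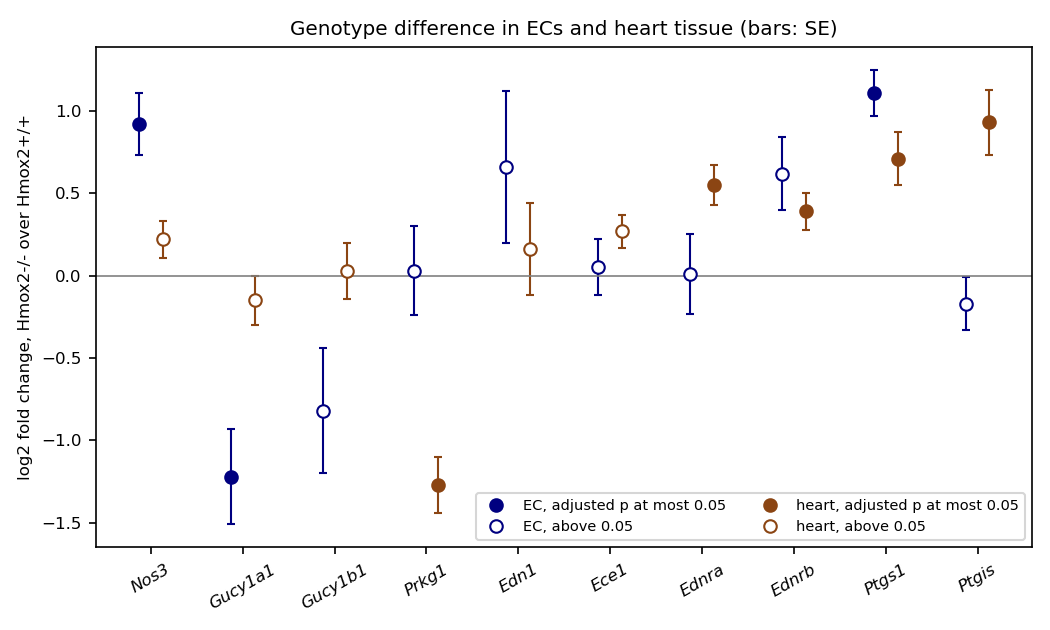
The vertical axis is the log2 fold change, Hmox2-/- over Hmox2+/+, of each gene in ECs (blue) and heart tissue (brown) with its SE, from edgeR on 3 against 3 and 4 against 3 libraries. Filled points have an adjusted p of at most 0.05: Nos3, Gucy1a1 and Ptgs1 in ECs, and Prkg1, Ednra, Ednrb, Ptgs1 and Ptgis in heart tissue.

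Levels between genes were compared in TPM, which is per transcript length. In ECs of Hmox2+/+ mice Ece1 was the highest of the 10 at 213 ± 68.5 TPM (SD, n = 3), then Ptgis at 94.1 ± 24.9 TPM, and each was above the next gene in every library. Nos3, Ptgs1 and Edn1 followed, at 42.4 ± 13.1, 28.2 ± 8.45 and 21.7 ± 11.0 TPM, and neighbours among these 3 overlapped. The cyclase subunits Gucy1b1 and Gucy1a1 were at 12.9 ± 3.45 and 7.84 ± 1.42 TPM. The receptors were low in ECs, Ednrb at 3.22 ± 0.672 TPM and Ednra at 1.92 ± 0.624 TPM, and Prkg1 was lowest at 1.86 ± 0.465 TPM, overlapping Ednra. In hearts of Hmox2+/+ mice Ece1 was again first, at 16.0 ± 3.11 TPM (SD, n = 4), and Edn1 last at 1.14 ± 0.475 TPM. Ednra stood second there, at 6.61 ± 1.14 TPM, and the 8 genes from Ednra to Prkg1 formed a chain of neighbours that overlapped. The Ece1 level in TPM is raised by Ece1-203, a listed transcript of 172 bases in the annotation, which held 27.0% to 33.3% of the gene's TPM in ECs of Hmox2+/+ mice.

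**Figure D2:**
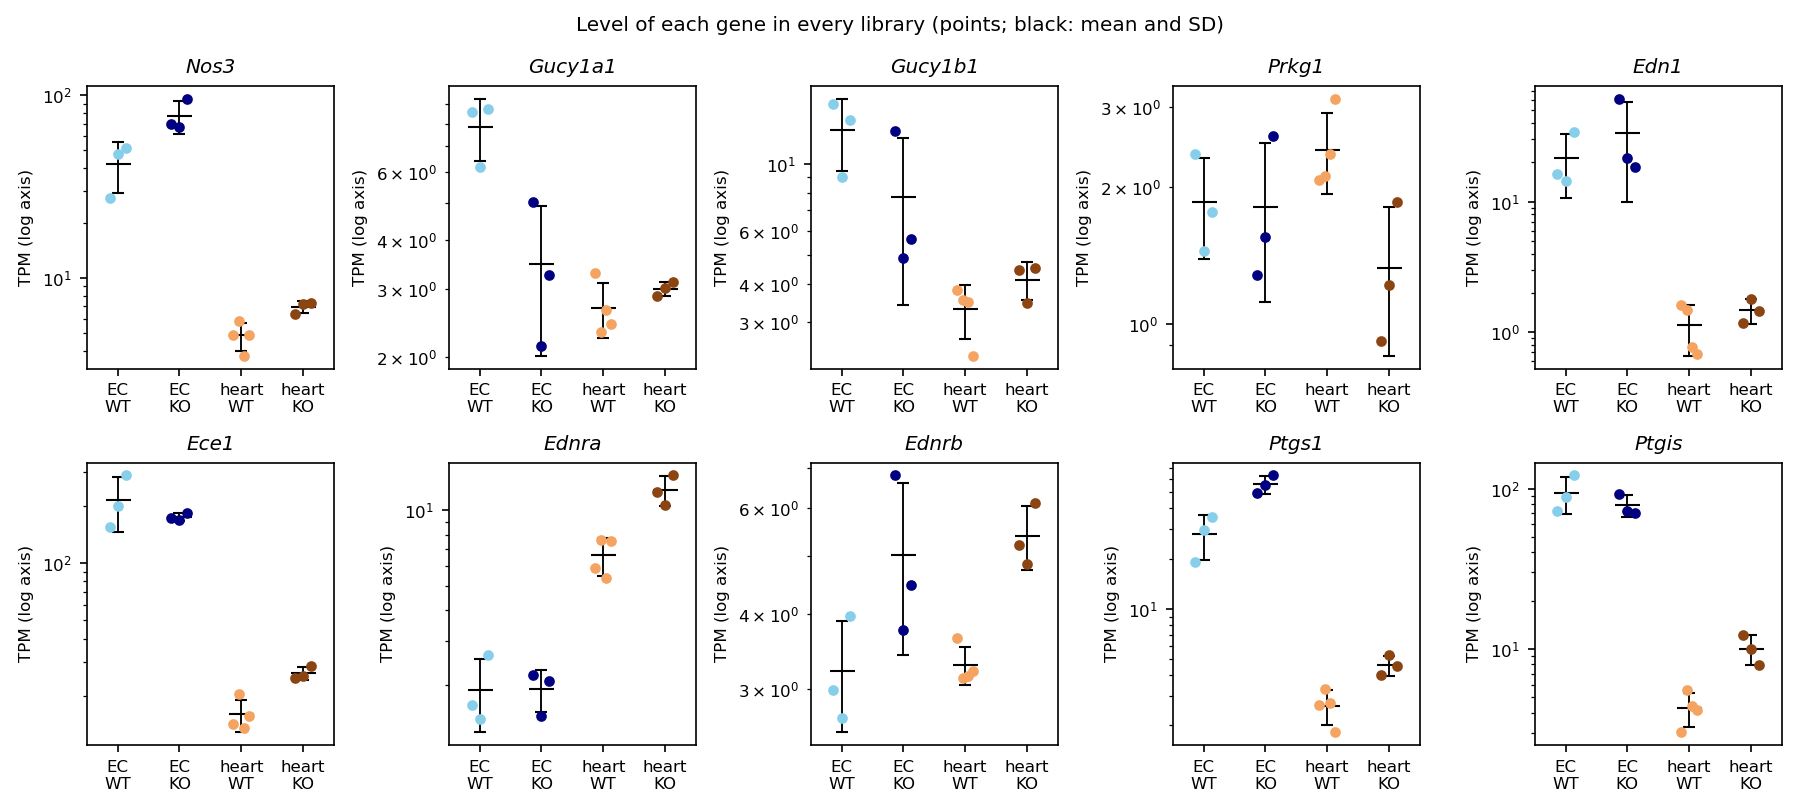
Each panel gives 1 gene in TPM on a log axis, with a point per library and the mean and SD in black, for ECs (3 WT, 3 KO) and heart tissue (4 WT, 3 KO). Nos3, Ptgs1, Ptgis, Ece1, Edn1 and Gucy1b1 were higher in every EC library than in every heart library, while Ednra was higher in every heart library.

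Nos3, the nitric oxide synthase of endothelium, lies on chromosome 5 at 24569787 to 24589475 (plus strand, GRCm39). It was at 27.3, 48.1 and 51.7 TPM in ECs of Hmox2+/+ mice and at 69.4, 67.6 and 95.7 TPM in ECs of Hmox2-/- mice. Every Hmox2-/- library was above every Hmox2+/+ library. In normalized counts the means were 154 and 292 CPM, a log2 fold change of 0.92 ± 0.19 (SE; edgeR adjusted p = 0.0183). Endothelial markers moved with it: 5 of the 10 were called higher and Kdr lower, with a median log2 fold change of 0.72. Set against the geometric mean of these markers, Nos3 was 0.612 ± 0.0965 in ECs of Hmox2+/+ mice (SD, n = 3) and 0.803 ± 0.115 in ECs of Hmox2-/- mice (SD, n = 3). These ratios did not overlap, and the exact two-sided permutation test gave p = 0.1, the smallest that 3 against 3 allows (adjusted p = 0.3 over 6 ratio tests). Without EC KO 2 and EC KO 3 the log2 fold change of Nos3 was 0.68 (adjusted p = 0.32 by edgeR), and the log2 difference of the marker ratio was 0.28, where it was 0.39 with all libraries, with no test for 1 library. The call was also lost without EC WT 1 (log2 0.78, adjusted p = 0.0501), without EC KO 2 alone (0.93, adjusted p = 0.0545) and without EC KO 3 alone (0.80, adjusted p = 0.0755), all by edgeR.

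In heart tissue Nos3 was at 4.91, 5.84, 3.76 and 4.91 TPM in Hmox2+/+ mice and at 6.36, 7.20 and 7.33 TPM in Hmox2-/- mice. The libraries did not overlap, but on normalized counts the log2 fold change was 0.22 ± 0.11 (edgeR adjusted p = 0.137). The heart difference was smaller than the EC difference by 0.66 ± 0.21 on the log2 scale (interaction, edgeR adjusted p = 0.0313). Leaving out any 1 of 8 libraries ended this call (EC WT 1, EC KO 2, EC KO 3, heart WT 2, heart WT 4 and each of the 3 Hmox2-/- hearts), with differences of -0.51 to -0.68, and limma on log2(TPM + 1) gave -0.44 (adjusted p = 0.303). Relative to the endothelial markers Nos3 was 0.314 ± 0.0389 in hearts of Hmox2+/+ mice (SD, n = 4) and 0.324 ± 0.0266 in hearts of Hmox2-/- mice (SD, n = 3; exact permutation p = 0.743). Nos3 overlaps Atg9b on the other strand and shares 6.36% of its 31-base words with it. Atg9b had 23 to 162 counts in ECs and 5 to 56 in heart tissue, against 3325 to 9309 and 140 to 840 counts for Nos3.

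TPM and normalized counts are different scales for heart tissue. On log2(TPM + 1), tested with limma, the median gene was higher in Hmox2-/- hearts by 0.22, and 4506 genes were called higher and 439 lower, where edgeR on counts called 2380 higher and 2238 lower. Heart values in TPM are therefore shown per library, and the fold changes and calls are those of the normalized counts.

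Gucy1a1 and Gucy1b1, the subunits of the nitric oxide receptor, are neighbours on chromosome 3 (81999733 to 82053216 and 81939312 to 81982022, both on the minus strand, GRCm39). Gucy1a1 was at 8.58, 6.20 and 8.75 TPM in ECs of Hmox2+/+ mice and at 5.01, 2.14 and 3.26 TPM in ECs of Hmox2-/- mice. No libraries overlapped, and the log2 fold change was -1.22 ± 0.29 (edgeR adjusted p = 0.0304). Gucy1b1 was at 15.7, 9.05 and 14.0 TPM in Hmox2+/+ ECs and at 12.8, 4.88 and 5.63 TPM in Hmox2-/- ECs. EC KO 1 lay within the Hmox2+/+ range, and the log2 fold change of -0.82 ± 0.38 did not pass (edgeR adjusted p = 0.168). The 8 smooth muscle markers summed to 3031, 1997 and 3189 TPM in the Hmox2+/+ ECs and to 2273, 605 and 655 TPM in the Hmox2-/- ECs, so EC KO 2 and EC KO 3 were lowest both in these markers and in both subunits. Of the 8, 4 were called lower and none higher, with a median log2 fold change of -1.45. Without EC KO 2 and EC KO 3 the log2 fold change of Gucy1a1 was -0.74 (edgeR adjusted p = 0.383) and that of Gucy1b1 -0.18 (0.874). Leaving out EC WT 1, EC KO 2 or EC KO 3 alone also ended the Gucy1a1 call, with log2 fold changes of -0.98, -1.02 and -1.14.

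**Figure D3:**
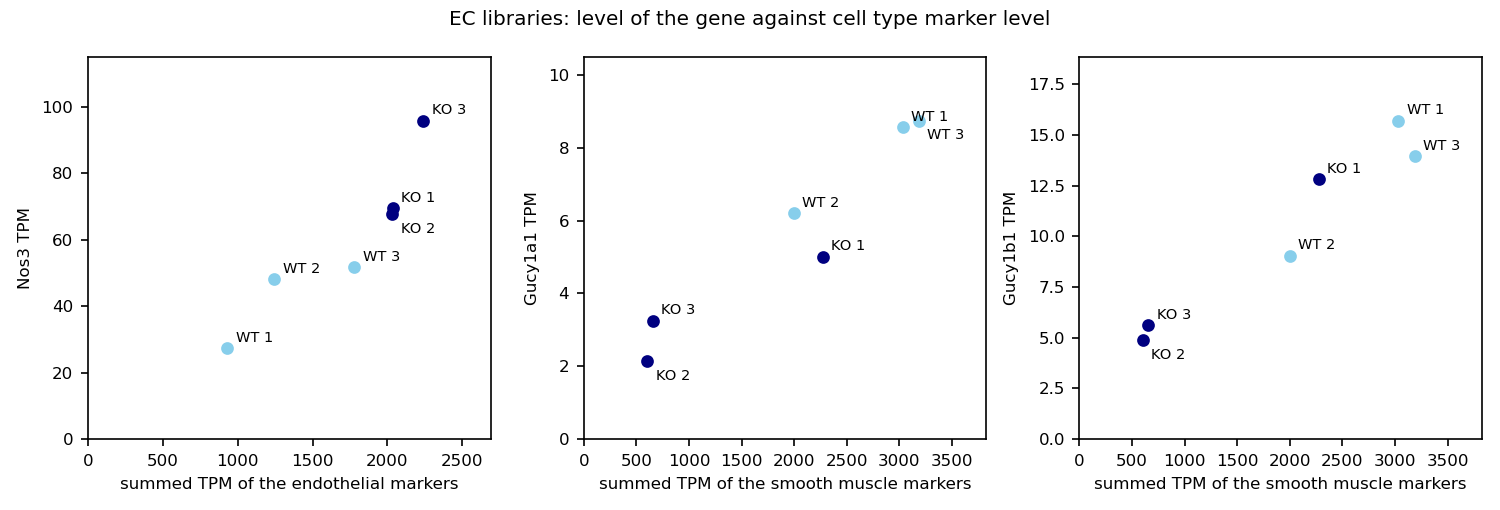
Each point is 1 EC library. The vertical axes give Nos3, Gucy1a1 and Gucy1b1 in TPM and the horizontal axes the summed TPM of 10 endothelial or 8 smooth muscle markers. EC KO 1 lay at 2273 TPM of smooth muscle markers, within the Hmox2+/+ range, and EC KO 2 and EC KO 3 at 605 and 655 TPM.

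The ratio of Gucy1a1 to Gucy1b1 in TPM was 0.620 ± 0.0702 in Hmox2+/+ ECs and 0.469 ± 0.0974 in Hmox2-/- ECs (SD, n = 3 each; exact permutation p = 0.2), a log2 difference of -0.41, and of -0.66 without EC KO 2 and EC KO 3. In heart tissue Gucy1a1 was at 2.33 to 3.29 TPM in Hmox2+/+ mice and 2.87 to 3.13 TPM in Hmox2-/- mice, with a log2 fold change of -0.15 ± 0.15 on normalized counts (edgeR adjusted p = 0.456). Gucy1b1 was at 2.32 to 3.83 and 3.46 to 4.51 TPM there (log2 fold change 0.03 ± 0.17, edgeR adjusted p = 0.911). The Gucy1a1 difference was higher in heart tissue than in ECs by 1.10 ± 0.33 (interaction, edgeR adjusted p = 0.024). Leaving out EC WT 1, EC KO 2 or EC KO 3 alone ended this call too (edgeR adjusted p = 0.0614, 0.0555 and 0.0601). The subunit ratio in heart tissue was 0.831 ± 0.167 (n = 4) and 0.738 ± 0.12 (n = 3; SD, exact permutation p = 0.514).

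Prkg1, the cGMP-dependent kinase, spans chromosome 19 from 30541889 to 31742479 (minus strand, GRCm39). In heart tissue it was at 2.07, 2.11, 2.36 and 3.13 TPM in Hmox2+/+ mice and at 0.92, 1.22 and 1.85 TPM in Hmox2-/- mice. All Hmox2-/- hearts were below all Hmox2+/+ hearts. Normalized levels were 15.3 and 6.37 CPM, and the log2 fold change was -1.27 ± 0.17, a drop to 0.416 of the Hmox2+/+ level (edgeR adjusted p = 6.54e-04). It was called under all 16 alternatives without a fold limit, between -1.48 and -0.56. The value closest to 0 came from limma on log2(TPM + 1). Long transcripts were lower in these hearts in general: the 500 genes closest to Prkg1 in length had a median log2 fold change of -0.39. The part of this trend in the Prkg1 difference was not tested.

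In ECs Prkg1 was at 2.36, 1.45 and 1.76 TPM in Hmox2+/+ mice and at 1.29, 1.55 and 2.59 TPM in Hmox2-/- mice, which overlapped (log2 fold change 0.03 ± 0.27, edgeR adjusted p = 0.944). Without EC KO 2 and EC KO 3 it was -0.29 (edgeR adjusted p = 0.758). The difference in heart tissue was lower than that in ECs by 1.25 ± 0.33 on the log2 scale (edgeR adjusted p = 0.0119). This call was lost with length-scaled TPM (-1.18, edgeR adjusted p = 0.0664) and with limma on log2(TPM + 1) (-0.52, adjusted p = 0.184).

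The lower heart level was seen in the transcript of the first start. Prkg1-201, whose start is the first window printed above, was at 1.94 TPM on average in Hmox2+/+ hearts (1.82 to 2.08) and at 0.938 TPM in Hmox2-/- hearts (0.726 to 1.28). Prkg1-202, from the second start, was at 0.175 TPM (0.0992 to 0.252) and 0.338 TPM (0.194 to 0.412). In hearts of Hmox2+/+ mice it held 3.20% to 12.1% of the gene's TPM, and in those of Hmox2-/- mice 21.1% to 33.5%, which did not overlap. In ECs the share was 29.0% to 48.0% in Hmox2+/+ mice and 4.76% to 28.5% in Hmox2-/- mice. Other listed transcripts of Prkg1 took part of its TPM: in heart WT 4 Prkg1-201 held 66.5% and Prkg1-202 3.20%. Transcript shares are Kallisto's estimates without an error of their own and were not tested. At 95 to 481 counts per heart library for the whole gene, a low share rests on few reads.

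Edn1, the precursor of endothelin-1, lies on chromosome 13 at 42446301 to 42461466 (plus strand, GRCm39). Of the 10 it had the largest SD relative to its mean in ECs of both genotypes. It was at 16.3, 14.5 and 34.4 TPM in Hmox2+/+ ECs and at 61.4, 21.7 and 18.4 TPM in Hmox2-/- ECs. EC KO 1 stood highest and the other libraries overlapped, and the log2 fold change of 0.66 ± 0.46 did not pass (edgeR adjusted p = 0.347). It was -0.01 without EC KO 1, 1.02 without EC WT 3, and 1.45 without EC KO 2 and EC KO 3 together (edgeR adjusted p = 0.993, 0.187 and 0.241). In heart tissue Edn1 had 23 to 105 counts per library, at 0.68 to 1.61 TPM in Hmox2+/+ mice and 1.17 to 1.81 TPM in Hmox2-/- mice, and no difference was detectable at this depth (log2 fold change 0.16 ± 0.28, edgeR adjusted p = 0.687).

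Ece1, the endothelin-converting enzyme, lies on chromosome 4 at 137589530 to 137692542 (plus strand, GRCm39). It was at 154, 198 and 288 TPM in Hmox2+/+ ECs and at 171, 167 and 184 TPM in Hmox2-/- ECs, which overlapped (log2 fold change 0.05 ± 0.17, edgeR adjusted p = 0.844). Without EC KO 2 and EC KO 3 it was 0.00 (edgeR adjusted p = 0.997). In heart tissue the libraries did not overlap, at 14.3, 20.5, 13.6 and 15.7 TPM in Hmox2+/+ mice and 24.9, 25.5 and 28.9 TPM in Hmox2-/- mice. On normalized counts the log2 fold change of 0.27 ± 0.10 missed the threshold (edgeR adjusted p = 0.0594). DESeq2, length-scaled TPM and limma on log2(TPM + 1) each called it. So did leaving out heart WT 2, heart KO 1 or heart KO 3, while the other alternatives did not (edgeR adjusted p up to 0.219). Heart values in TPM include the short Ece1-203, at 0, 0, 2.26 and 2.22 TPM in Hmox2+/+ hearts and 4.49, 2.41 and 7.80 TPM in Hmox2-/- hearts. Its part in the TPM-based calls was not tested.

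Both endothelin receptors were higher in Hmox2-/- hearts. Ednra (chromosome 8, 78386590 to 78451552, minus strand, GRCm39) was at 5.91, 7.60, 5.38 and 7.55 TPM in Hmox2+/+ hearts and at 11.8, 10.5 and 13.8 TPM in Hmox2-/- hearts. No libraries overlapped, and the log2 fold change was 0.55 ± 0.12 (edgeR adjusted p = 0.00765). Ednra was called under all 16 alternatives without a fold limit, but its change did not reach the 2-fold limit. Ednrb (chromosome 14, 104052053 to 104081900, minus strand, GRCm39) was at 3.65, 3.13, 3.15 and 3.22 TPM in Hmox2+/+ hearts and at 5.20, 4.84 and 6.12 TPM in Hmox2-/- hearts. These did not overlap either, and the log2 fold change was 0.39 ± 0.11 (edgeR adjusted p = 0.0219). The Ednrb call was lost without heart WT 2 (adjusted p = 0.0592) or without heart KO 1 (adjusted p = 0.053), and with all 13 libraries in 1 fit (adjusted p = 0.106, all by edgeR). In the same hearts 4 of 8 smooth muscle markers were called higher and 1 lower, with a median log2 fold change of 0.58. Of the pericyte markers 4 of 6 were called lower, where 33.4% of all genes were called. Des, 1 of the 8 smooth muscle markers, was at 359 to 519 TPM in Hmox2+/+ hearts and at 27.85 to 33.27 TPM in Hmox2+/+ ECs. Which cells carried the receptor differences was not tested.

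In ECs Ednra was at 1.66, 1.46 and 2.63 TPM in Hmox2+/+ mice and 2.19, 1.50 and 2.08 TPM in Hmox2-/- mice (log2 fold change 0.01 ± 0.24, edgeR adjusted p = 0.976, and 0.12 without EC KO 2 and EC KO 3, adjusted p = 0.908). Ednrb was at 2.98, 2.69 and 3.97 TPM and at 6.79, 3.76 and 4.47 TPM, where EC KO 2 fell within the Hmox2+/+ range in TPM, though not in CPM. Its log2 fold change of 0.62 ± 0.22 did not pass (edgeR adjusted p = 0.0903). It was 1.01 without EC KO 2 and EC KO 3 (edgeR adjusted p = 0.224). The ratio of Ednra to Ednrb in ECs was 0.588 ± 0.0646 in Hmox2+/+ mice and 0.396 ± 0.0718 in Hmox2-/- mice (SD, n = 3 each), without overlap, at the smallest exact permutation p of 0.1 (adjusted p = 0.3). The log2 difference was -0.58, and -0.86 without EC KO 2 and EC KO 3. In heart tissue, where Ednra was the higher receptor in every library, the ratio was 2.03 ± 0.421 (n = 4) and 2.24 ± 0.0582 (n = 3; SD, exact permutation p = 0.571, where 0.0286 is the smallest possible).

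Ptgs1, the constitutive cyclooxygenase, was higher in Hmox2-/- mice in both tissues. It lies on chromosome 2 at 36120438 to 36142287 (plus strand, GRCm39). In ECs it was at 19.1, 29.8 and 35.7 TPM in Hmox2+/+ mice and at 49.3, 55.0 and 63.2 TPM in Hmox2-/- mice, without overlap. Means were 57.1 and 123 CPM, the log2 fold change was 1.11 ± 0.14 (edgeR adjusted p = 0.00405), and leaving out any 1 library kept the call. Without EC KO 2 and EC KO 3 together the log2 fold change was 0.94 (edgeR adjusted p = 0.181). In heart tissue Ptgs1 was at 2.67, 3.31, 2.73 and 1.82 TPM in Hmox2+/+ mice and at 3.99, 5.27 and 4.53 TPM in Hmox2-/- mice, again without overlap (log2 fold change 0.71 ± 0.16, edgeR adjusted p = 0.00772). With length-scaled TPM the heart call was lost (log2 fold change 0.48, edgeR adjusted p = 0.0827). The heart and EC differences did not differ beyond their error (interaction -0.36 ± 0.21, edgeR adjusted p = 0.211). Leukocyte markers were called higher beside it, 4 of 7 in ECs and 3 of 7 in heart tissue, where 18.1% and 33.4% of all genes were called. Their median log2 fold change was 0.66 in ECs and 0.44 in heart tissue. In heart tissue they summed to 70.3 to 99.8 TPM (WT) and 176 to 276 TPM (KO). Lyz2 held 42.57 to 62.24 and 120.1 to 188.5 TPM of this. Ptprc was not higher, at 1.07 to 1.28 TPM (WT) and 0.54 to 1.09 TPM (KO).

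Ptgis, prostacyclin synthase, differed between the tissues in its response. It lies on chromosome 2 at 167033725 to 167083018 (minus strand, GRCm39). In heart tissue it was at 3.02, 5.51, 4.43 and 4.15 TPM in Hmox2+/+ mice and at 12.2, 9.95 and 7.93 TPM in Hmox2-/- mice. The libraries did not overlap, and the log2 fold change was 0.93 ± 0.20 (1.90-fold, edgeR adjusted p = 0.00596). Heart WT 1, the shallowest library, had only 35 counts of it and the lowest level. In ECs Ptgis was at 72.2, 88.9 and 121 TPM in Hmox2+/+ mice and 92.7, 72.5 and 70.6 TPM in Hmox2-/- mice, which overlapped (log2 fold change -0.17 ± 0.16, edgeR adjusted p = 0.462, and -0.01 without EC KO 2 and EC KO 3, adjusted p = 0.984). The heart difference exceeded the EC difference by 1.14 ± 0.27 (edgeR adjusted p = 0.00741).

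Ptgis has a pair of listed transcripts that encode 501 residues (Ptgis-201) and 509 residues (Ptgis-202). Ptgis-202 held 23.1% to 28.8% of the gene's TPM in Hmox2+/+ ECs and 4.68% to 14.2% in Hmox2-/- ECs, while in heart tissue it held 62.0% to 86.2% (WT) and 61.0% to 63.6% (KO). The EC shares did not overlap between genotypes and the heart shares did. On the scale of TPM, Ptgis-202 averaged 23.3 TPM in Hmox2+/+ ECs and 6.12 TPM in Hmox2-/- ECs, while Ptgis-201 averaged 70.7 and 72.3 TPM.

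**Figure D4:**
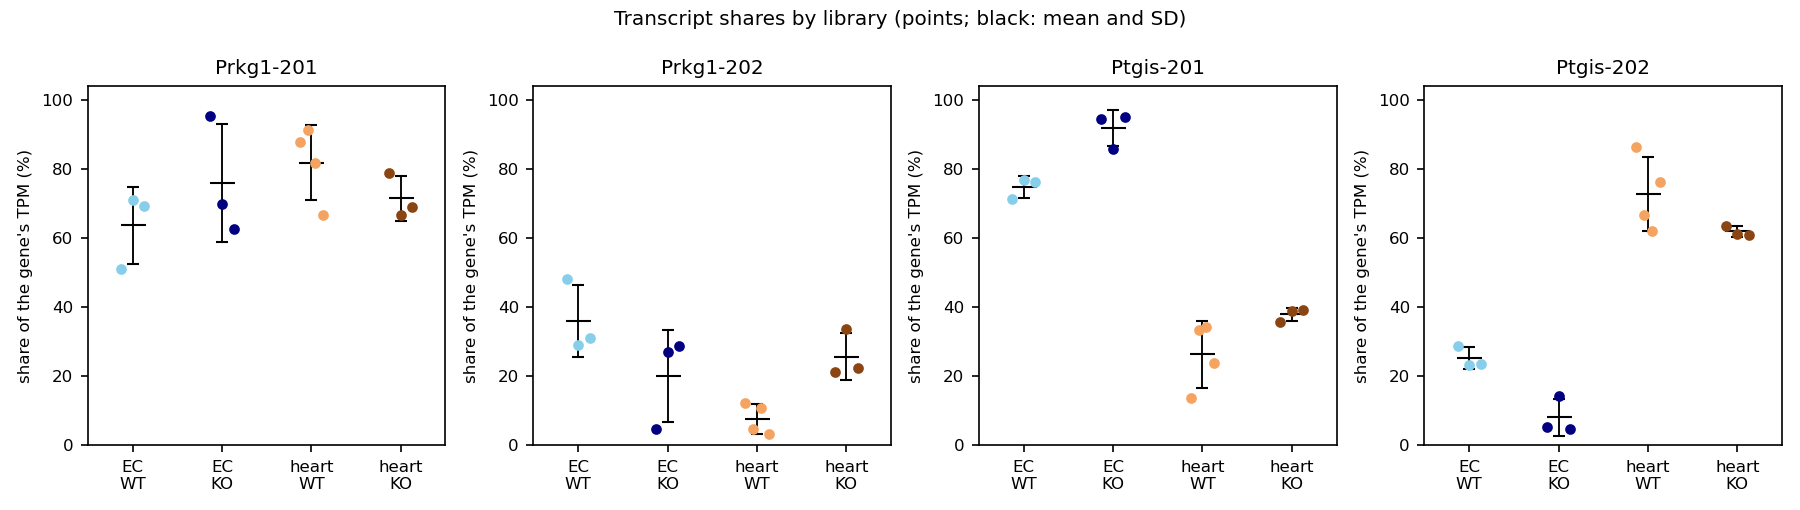
Each panel gives the share of the gene's TPM, in percent, that 1 transcript of Prkg1 or Ptgis held in each library (points), with the mean and SD in black. In heart tissue the Prkg1-202 share ran from 3.20% to 12.1% (WT) and from 21.1% to 33.5% (KO), and the Ptgis-202 share was lower in the ECs of Hmox2-/- mice.

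Of 21 genes that supply or limit nitric oxide (arginine uptake and recycling, cofactor synthesis, inhibitor breakdown and partners of the synthase), 19 were tested in ECs and 3 were called higher and 1 lower, where 18.1% of all genes were called. In this list and the 3 that follow, 16 genes were called with all EC libraries, and these kept their sign without EC KO 2 and EC KO 3. That was near certain, as EC KO 1 and the Hmox2+/+ libraries are in both fits, and is no separate support. With EC KO 1 as the only Hmox2-/- library, the EC calls of these lists cannot be judged without the other 2. Ass1, which remakes arginine from citrulline, rose by 0.91 ± 0.14 on the log2 scale (edgeR adjusted p = 0.00817), from 34.4 to 64.8 CPM. Gch1, the first enzyme of tetrahydrobiopterin synthesis, rose by 0.92 ± 0.24, and Nostrin, which moves NOS3 from the membrane, by 1.09 ± 0.22. Cyb5r3, a reductase of cytochrome b5 and of alpha globin, was lower, at -0.63 ± 0.13. In heart tissue 18 were tested, and 4 were called higher and 3 lower, where 33.4% of all genes were called. Ass1 rose there too, by 0.96 ± 0.22 (edgeR adjusted p = 0.00815), as did the pterin genes Spr (0.74 ± 0.17), Qdpr (0.42 ± 0.10) and Gchfr (1.18 ± 0.27), the last a feedback regulator of GCH1. The arginine transporters Slc7a1 and Slc7a2 were lower, at -1.06 ± 0.11 and -0.99 ± 0.19, and so was Ddah1, which breaks down the synthase inhibitor asymmetric dimethylarginine, at -1.09 ± 0.21. Slc7a1 went from 96.3 to 46.3 CPM. The list's median log2 fold change was 0.01 in ECs and 0.21 in heart tissue.

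Of 22 other genes of cGMP signalling (natriuretic peptide receptors, phosphodiesterases, kinase targets), 21 were tested in ECs and 4 were called higher and 1 lower, again beside 18.1% of all genes. Npr1, the guanylate cyclase receptor of natriuretic peptides, rose by 0.76 ± 0.20, and Npr3, their clearance receptor, was lower at -1.53 ± 0.38. Pde1b, a phosphodiesterase, rose by 0.72 ± 0.15. Pde1c and Prkg2 were also called higher, on few counts. Pde1c had 6 to 14 counts in Hmox2+/+ and 20 to 67 in Hmox2-/- EC libraries. Prkg2 had 5 to 67 and 131 to 185 counts. In heart tissue 20 were tested, and 1 was called higher and 4 lower, a smaller share than the 33.4% of all genes. Npr3 rose there by 0.55 ± 0.10 on the log2 scale. Rgs2, a G protein regulator that the kinase activates, was lower at -0.82 ± 0.17, Npr2 at -0.48 ± 0.11, Ppp1r12a, the targeting subunit of myosin phosphatase, at -0.50 ± 0.13, and the phosphodiesterase Pde3a at -0.51 ± 0.15. The difference between the tissues was tested for Npr3 and was 2.12 ± 0.39 (edgeR adjusted p = 0.00183).

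Of 4 further endothelin genes, 3 were tested in each tissue. Ece2, a second converting enzyme, was higher in ECs by 0.75 ± 0.20 (edgeR adjusted p = 0.0395). Edn3 was lower in heart tissue at -2.07 ± 0.39 (edgeR adjusted p = 0.00321), from 2.62 to 0.60 CPM, where it had 8 to 85 counts per library.

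Of 21 further prostanoid genes 20 were listed. In ECs 18 were tested, and 4 were called higher and 2 lower, beside 18.1% of all genes. Tbxas1, thromboxane synthase, rose by 1.39 ± 0.25, the prostaglandin transporter Slco2a1 by 0.81 ± 0.19, the prostaglandin F receptor Ptgfr by 1.31 ± 0.37 and Ptges3, a prostaglandin E synthase and chaperone partner, by 0.58 ± 0.10. Ptgds, a prostaglandin D synthase, was lower at -2.98 ± 0.51, on 42 to 78 counts in Hmox2+/+ and 4 to 12 in Hmox2-/- libraries. The E receptor Ptger3 was lower at -1.87 ± 0.43. In heart tissue 16 were tested, and 4 were called higher and 1 lower, a share near the 33.4% of all genes. Ptgds rose there by 1.72 ± 0.17 (edgeR adjusted p = 5.02e-05), from 164 to 542 CPM. Ptges2 rose by 0.82 ± 0.15, Abcc4, which exports prostanoids, by 0.69 ± 0.14, and Slco2a1 by 0.67 ± 0.21. Ptgs2, the inducible cyclooxygenase, was lower at -1.27 ± 0.40 (edgeR adjusted p = 0.0319), on 14 to 35 counts per library, while Ptgs1 was higher in the same hearts. The list's median log2 fold change was 0.42 in ECs and 0.21 in heart tissue.

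**Figure D5:**
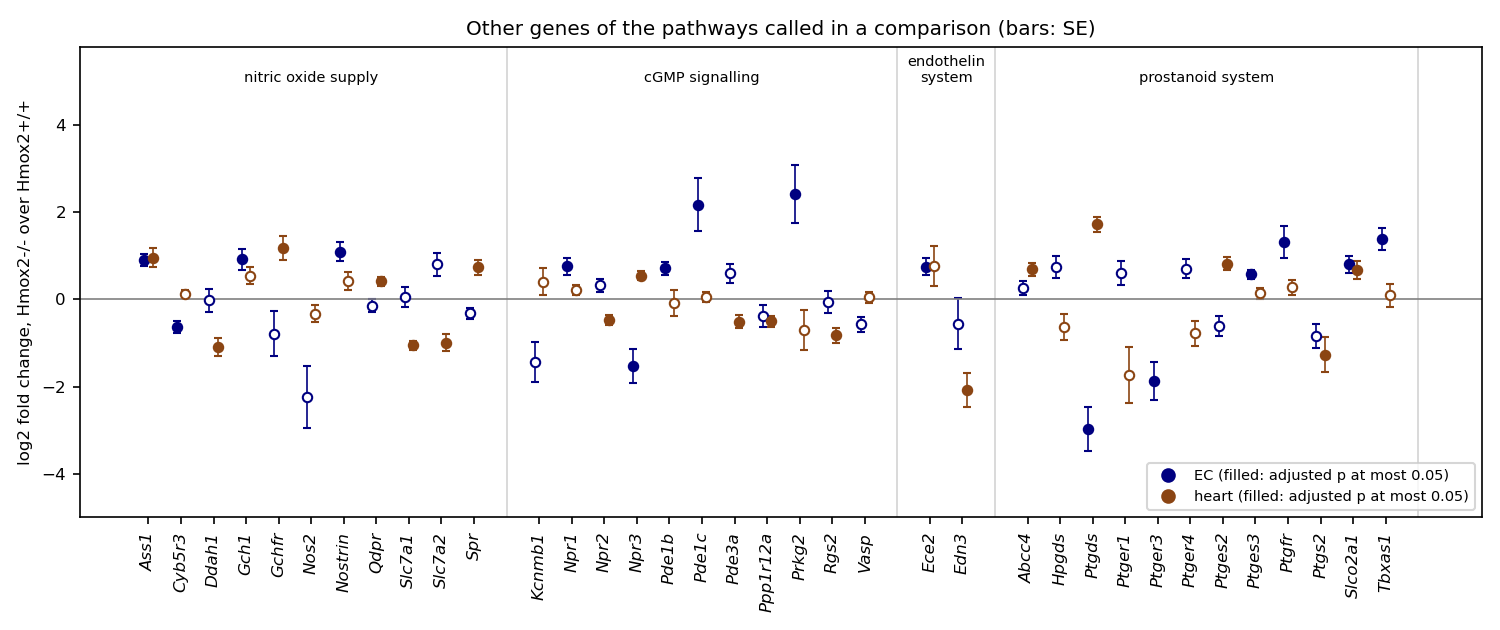
The vertical axis is the log2 fold change, Hmox2-/- over Hmox2+/+, with its SE, in ECs (blue) and heart tissue (brown), for genes of the 4 wider lists that were called in a tissue or in the test between tissues. Filled points have an adjusted p of at most 0.05, and Ptgds stood at -2.98 in ECs and 1.72 in heart tissue.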

How the data were processed

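RNA was measured in 13 libraries, from aortic ECs (3 Hmox2+/+, 3 Hmox2-/-) and hearts (4 Hmox2+/+, 3 Hmox2-/-). The authors pseudoaligned 100 bp paired reads of oligo-dT directional libraries with kallisto (0.44.0 in the submitters' processing notes) at default settings, and the deposited estimated counts and TPM values are per transcript and not normalized between libraries. The methods name a GENCODE mouse index on GRCm39, while the labels list mm10 and a human build, and default settings do not use the strand. Effective lengths are deposited beside the counts. Transcripts were assigned to genes by stable identifier in GENCODE M39 (97.2% of 118489 transcripts matched). Estimated counts and TPM were summed per gene, and the counts were rounded.

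After filterByExpr (minimum count 10) and TMM normalization, genes were tested within each tissue with edgeR 4.0.16 (R 4.3.3), and a tissue by genotype interaction over all 13 libraries. CPM divide counts by the library size after its TMM factor. Separate mice are named for the groups, not for each library, and fewer are named for wild-type hearts than there are libraries. The p-values therefore measure the spread between these libraries. Replicates differed by more than sampling noise. The scripts were tested on simulated data. Ratios used the exact permutation test (SciPy 1.17.1), and figures matplotlib 3.10.9. Alternatives were DESeq2 1.42.0, other size factors, no filter, length-scaled TPM, limma 3.58.1 on log2(TPM + 1), no mitochondrial genes, a fold limit, a replicate block, 1 fit for all libraries, Ddx3y, and leaving out each library.

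The 10 genes and all lists were chosen with earlier results of these data known. Named were all 10 genes, of each wider list those called in a comparison (at most 8 each), marker lists by their sum, Hmox2 and Ddx3y as checks, overlapping genes, and the genes most alike in pattern. Single markers, Ucp1 among them, were named after their values were seen.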

Additional observations from a re-analysis of the deposited data

Results flagged for a closer look

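The genotype difference was not the same in heart tissue and ECs for 4 of the 10 genes by the interaction test of edgeR. The heart difference minus the EC difference, on the log2 scale, was -0.66 for Nos3, 1.10 for Gucy1a1, -1.25 for Prkg1 and 1.14 for Ptgis. With Ddx3y above or below 10 CPM as a term, these were -0.41, 0.64, -0.93 and 0.98, and none was called. Of the wider lists, 5 of 19 nitric oxide supply genes had a called difference above 0 and 3 below, 3 and 4 of 21 cGMP genes, and 2 and 4 of 18 prostanoid genes, beside 28.8% of all genes. Among the genes of nitric oxide supply it was 0.81 for Cyb5r3, -1.03 for Ddah1, 2.0 for Gchfr, 1.93 for Nos2, 0.60 for Qdpr, -1.06 for Slc7a1, -1.76 for Slc7a2 and 1.10 for Spr. Among the genes of cGMP signalling it was 1.90 for Kcnmb1, -0.77 for Npr2, 2.12 for Npr3, -2.10 for Pde1c, -1.07 for Pde3a, -3.07 for Prkg2 and 0.66 for Vasp. Among the prostanoid genes it was 4.75 for Ptgds, -1.33 for Hpgds, -2.32 for Ptger1, -1.43 for Ptger4, 1.47 for Ptges2 and -1.25 for Tbxas1. Nos2, Gchfr, Ptger1, Prkg2 and Pde1c rest on low counts in at least 1 group, down to 2 counts for Nos2 in ECs and for Prkg2 in heart tissue. Ptgds, with the largest difference here, had 4 to 12 counts in Hmox2-/- ECs. Kcnmb1, Hpgds and Tbxas1 went down to 10, 6 and 10 counts in Hmox2+/+ hearts. None of the 4 Hmox2+/+ heart libraries stood apart for any of these genes or ratios, by Dixon's ratio at its critical value for 4 samples.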

How the results depend on the processing

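Of the 10 genes, edgeR called 3 in ECs, 5 in heart tissue and 4 between the tissues. In ECs leaving out 1 library gave 1 to 3 calls (1 without EC WT 1, EC KO 2 or EC KO 3, where Ptgs1 alone stayed called), with 638 to 3596 of all genes called. Without both EC KO 2 and EC KO 3, a setting also applied to the ratios and wider lists after seeing the data, 0 were called by edgeR (4 at an unadjusted p of at most 0.05, and 49 of all genes called). With Ddx3y as a term, an alternative chosen after seeing the data, 0 were called in ECs (4 unadjusted, 204 of all genes), and between the tissues, as planned, 0 as well (4 unadjusted, 1973 of all genes). All 7 heart libraries were above the Ddx3y limit, so that term was not run there. In heart tissue the fold limit left 1 call, and leaving out 1 library gave 5 to 6; between the tissues it gave 2 to 5. With the replicate block the counts were 4 in ECs, where Gucy1b1 was added (adjusted p = 0.0168), and 4 in heart tissue, where Ptgis was lost (adjusted p = 0.0543), and of all genes 2748 and 2871 were called. Deviations from the group means of same-numbered libraries correlated at 0.181, 0.04 and 0.0872 in ECs and at -0.0335, 0.0772 and 0.037 in heart tissue. Other pairs ran from -0.234 to 0.16 in ECs and from -0.108 to 0.0799 in heart tissue. Whether same-numbered libraries share more than a number cannot be told from so few libraries. Other alternatives kept the counts within 1.5 times, at 2 to 4 in ECs, 4 to 7 in heart tissue and 3 to 4 between tissues. All genes called in ECs were 1377 by limma on log2(TPM + 1), 1420 with the fold limit and 4319 in 1 fit, against 2766, and calls split 1864 higher and 1011 lower in ECs under upper-quartile factors. Between the tissues upper-quartile factors gave 2115 higher and 2485 lower, and limma 3687 and 911, against 2579 and 2017, with 2456 called under the fold limit. In heart tissue 927 of all genes met the fold limit. Called log2 fold changes of the 10 genes kept their sign throughout. Leaving out 1 library moved the log2 ratio difference of Ednra to Ednrb between -0.71 and -0.44 in ECs and 0.07 and 0.26 in heart tissue, that of Gucy1a1 to Gucy1b1 between -0.58 and -0.29 and between -0.29 and -0.04, and that of Nos3 to the endothelial markers between 0.28 and 0.52 and between 0.00 and 0.13, with no call. Depth limits the low genes most: Edn1 and Ptgis in heart WT 1 had 23 and 35 counts.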

Other observations

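Over the 13 libraries and 8761 genes of at least 10 CPM on average, the pattern of Nos3 in log2 CPM was most like those of Megf6, Dhh and Myrip (Pearson r = 0.995, 0.993 and 0.993). Edn1 was most like Smo, Vit and Id2 (r = 0.984, 0.983 and 0.981), and Ptgis most like Cbr2, Dap and Ppia (r = 0.995, 0.994 and 0.994). These values are descriptions. The 13 points share a large difference between ECs and heart tissue, which any gene with such a difference also has. Prkg1, whose level is similar in ECs and heart tissue, was most like mt-Nd4, Arl5b and Zbtb10 (r = 0.976, 0.969 and 0.967).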
